A study of Mus musculus with 2 samples.

Results

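The Hmga2 region, chr10:119790000-119920000 of the mouse build mm9, held 41 of the 60157 peaks of 5-hydroxymethylcytosine (5hmC) in mouse embryonic fibroblasts (MEFs) at passage 0 and 2 of the 6726 peaks at passage 5. Its members are all peaks of the authors' lists that share at least 1 base with these bounds. Hmga2 lies on the minus strand with its start near base 119913500, so the region reaches 124 kb downstream of the start, in the direction of transcription, and 6.50 kb upstream of it. The region was selected on the positions and scores of the passage 0 peaks, which were already known to be dense and strong there, and with the passage 5 list known too. Their number, width and score are therefore given as a description with no test.

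The study set 5hmC in MEFs at passage 0 against passage 5, with 1 library each. Both cultures came from C57BL/6 embryos taken 13.5 days after conception, grew in high glucose DMEM with 10% fetal calf serum, and differ in the labels by passage number alone. Neither the number or sex of the embryos nor a shared origin of the cultures is given. DNA was sonicated and fragments carrying 5hmC were captured by the GLIB chemistry, in which the hydroxymethyl group is tagged with glucose and biotin. The readout is a list of enriched stretches, each with a score. A culture of MEFs is a mixed population, and fewer cells carrying the mark at a site cannot be told apart from less mark per cell. Peak lists hold no expression values, so neither the fibroblast identity nor the Hmga2 RNA level could be checked.

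TET enzymes make 5hmC by oxidizing 5-methylcytosine, and the mark is known to gather in the bodies of transcribed genes and at enhancers and to be low at active CpG-rich promoters. Hmga2 encodes a small chromatin protein that binds the minor groove of AT-rich DNA through AT-hook motifs. It is made in embryonic cells, fibroblasts included, and is shut down in most adult tissues, in part by the let-7 microRNAs. Mice without it are small, the pygmy phenotype, and its long introns are a site of rearrangements in human mesenchymal tumours.

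The promoter is shown because no peak of either list lies at the start of the gene. The sequence is the 250 bases before the RefSeq start of Hmga2, GRCm38.p6 chr10:120476470-120476719, minus strand, written 5′ to 3′ along the gene with each CG dinucleotide in capitals. It comes from another build than the peaks and was not placed on them by coordinate.
Hmga2 promoter: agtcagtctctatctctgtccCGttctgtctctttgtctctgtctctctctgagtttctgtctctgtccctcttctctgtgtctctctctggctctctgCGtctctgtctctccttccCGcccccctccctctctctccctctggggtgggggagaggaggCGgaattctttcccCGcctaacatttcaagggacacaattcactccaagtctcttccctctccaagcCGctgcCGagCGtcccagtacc
This stretch held 8 CG dinucleotides, and 43% of 32851 RefSeq promoter windows of the same length held as many or more, with a median of 6. Its G and C content was 56.4% against a median of 52.4%. The GC box letters GGGCGG did not occur on the printed strand, and their reverse complement CCGCCC occurred 1 time, starting 133 bases before the RefSeq start. One or the other was present in 32.7% of the promoter windows. These matches describe letters and not bound sites.

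No peak was called at the start of Hmga2 at either passage. At passage 0 the nearest peak downstream, chr10:119905284-119906559, was 1276 bp wide, had a score of 200 and ended 6.94 kb from the start. The nearest peak upstream lay outside the region at chr10:119926886-119927677, was 792 bp wide with a score of 174, and began 13.39 kb from the start. The stretch around the start without a passage 0 peak was thus 20326 bases long. Gaps of at least this length were common elsewhere and made up 30.5% of the 60067 gaps between neighbouring passage 0 peaks on the autosomes. The longest gap among the 41 members was 7505 bases, and the gap between the last member at the left border and the next peak outside was 22174 bases. At passage 5 the nearest peak ended 28.07 kb downstream of the start.

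**Figure D1:**
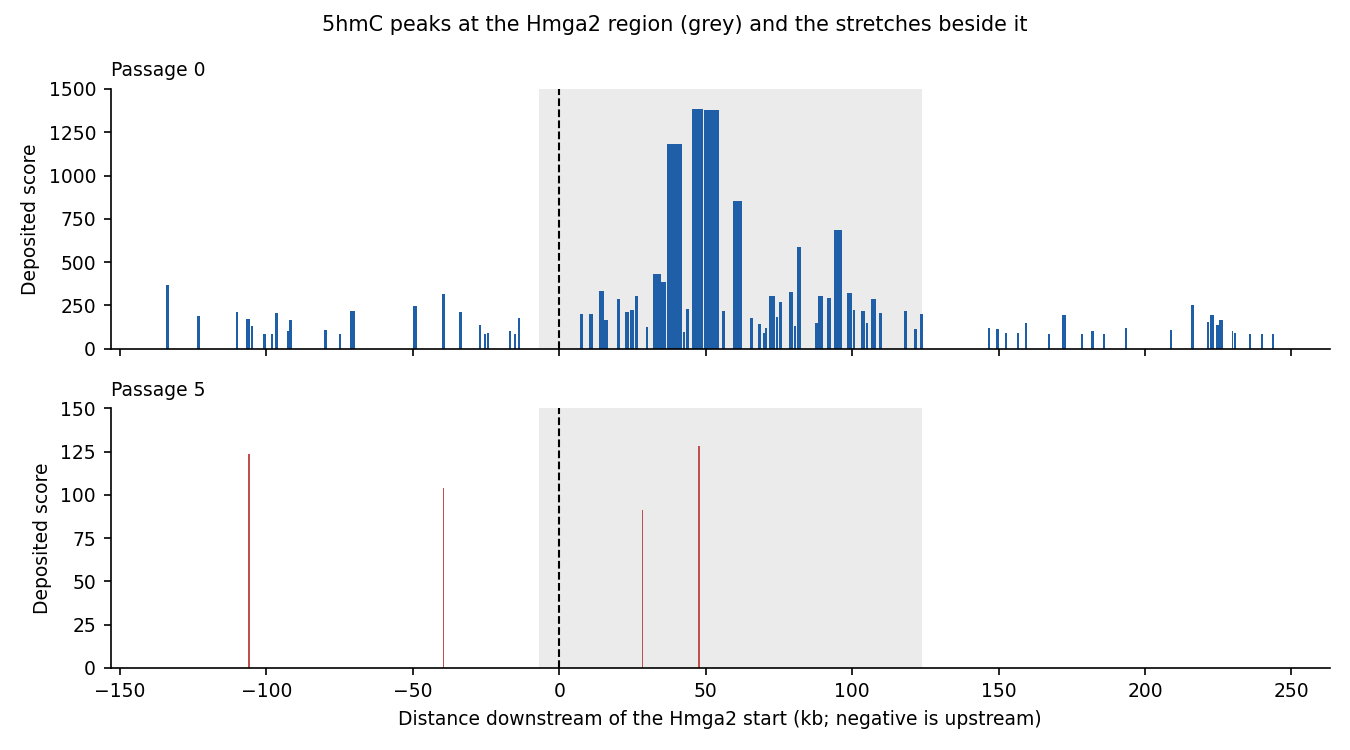
Deposited score of each peak against its distance downstream of the Hmga2 start in kb, at passage 0 (upper panel) and passage 5 (lower panel), with bar width to scale, the region in grey and the start as a dashed line. The panels have different score axes, since scores are comparable only within a list. At passage 0 the 41 peaks fill the grey area downstream of the start and reach 1386, while at passage 5 only 2 peaks lie in it.

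Downstream of the start, 5hmC peaks at passage 0 were closely spaced and covered about as many bases as they left free. Passage 0 peaks covered 62293 bases, which is 47.9% of the region and 50.4% of the part downstream of the start. Over the autosomes, passage 0 peaks covered 2.3% of the length up to the last peak. The stretches of the same length on both sides of the region were much sparser. Below the left border 22 peaks covered 14.7% of the stretch, and above the right border, upstream of the gene toward Msrb3, 22 peaks covered 15.6%. Both flanks were still denser than the autosomes as a whole.

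The spacing was tight. Of the 40 gaps between neighbouring members, measured from the end of a peak to the start of the next, 21 were at most 1 kb and 39 at most 5 kb. On the autosomes 13.4% and 38.2% of gaps were that short. The median gap was 902 bases at Hmga2 and 8615 bases on the autosomes, and from middle to middle the median step was 2830 bases at Hmga2. The shortest gap was 6 bases, between chr10:119842638-119843254 and chr10:119843261-119843906. Several members thus nearly touch, and joining those at most 1 kb apart left 20 blocks, 10 of them made of a single peak.

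Only 1 gap exceeded 5 kb. It ran from base 119795946 to base 119803450, between 110.0 and 117.6 kb downstream of the start, and cut off 3 peaks at the left border from the other 38. The 38 peaks formed a run of 103109 bases, chr10:119803451-119906559, between 6.94 and 110.0 kb from the start. By the rule of gaps of at most 5 kb this was the longest run on the autosomes and also the one with the most peaks, among 174 runs of at least 10 peaks. The RefSeq model of Hmga2 is 115 kb long in GRCm38. Its far end, exons and introns were not placed on the mm9 peaks, so the members are not assigned to them. In that annotation 5 other genes overlap Hmga2, 4 long noncoding RNAs and the microRNA gene Mir763, and the capture does not read strand.

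The number of peaks was set beside that of other places by cutting the autosomes into tiles of 130 kb. By their middles, 40 passage 0 peaks lay in the region. None of 18956 tiles held as many (0%). The median tile held 1 peak, the 99th percentile was 22, and the fullest tile, on chromosome 8, held 39. When the tiles were shifted by 65000 bases, 2 of 18947 tiles held at least 40, with up to 42 on chromosome 8, and neither overlapped Hmga2. The region was chosen with its peaks known, while the tiles were laid without regard to peaks. The tiles that cut through it held 34 and 27 peaks, and 25 and 38 after the shift. Hmga2 was thus among the densest stretches of the list and was not alone there.

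**Figure D2:**
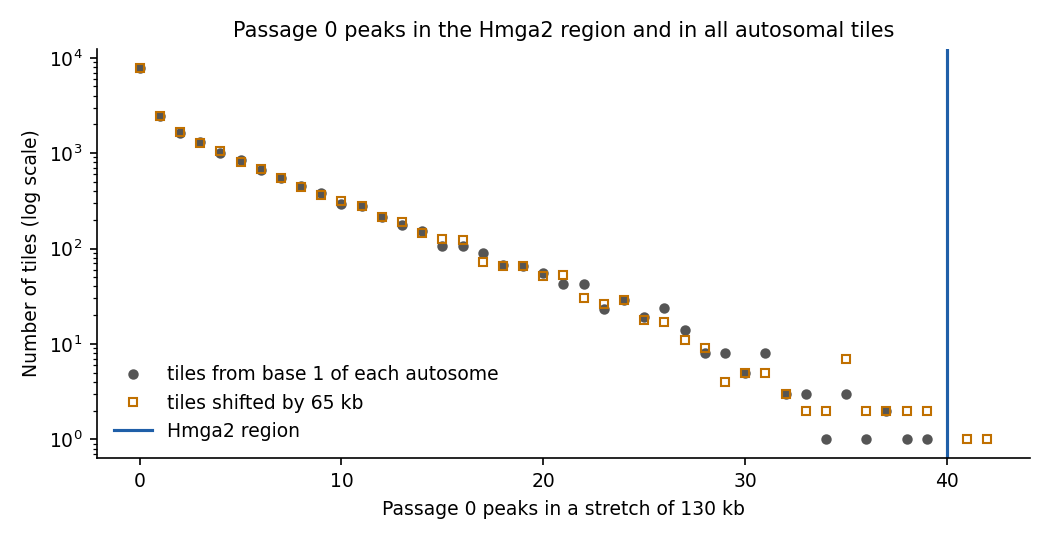
Number of autosomal tiles (log scale) by the number of passage 0 peaks they hold, for tiles laid from base 1 and tiles shifted by 65000 bases, with the Hmga2 region as a line at 40. Most tiles hold few peaks, the unshifted tiles end at 39, and 2 shifted tiles lie at or beyond the line.

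The members were also wide and high in score within the passage 0 list. Their widths ran from 617 to 5107 bp with a median of 1259 bp, against 850 bp over the list, and 7 of the 41 (17.1%) were wider than 2 kb against 2.11% of the list. Their scores, which are the authors' own and have no stated scale, ran from 88.6 to 1386 with a median of 220, against 129 over the list. The median member scored above 81.3% of the list. The highest 10% of the list by score took in 15 of the 41 members and the highest 1% took in 5. Width and score rose together, with a Spearman correlation of 0.84 across the 41 members and 0.79 across the list. Peaks of 1 library are not replicates, so no p is given.

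**Figure D3:**
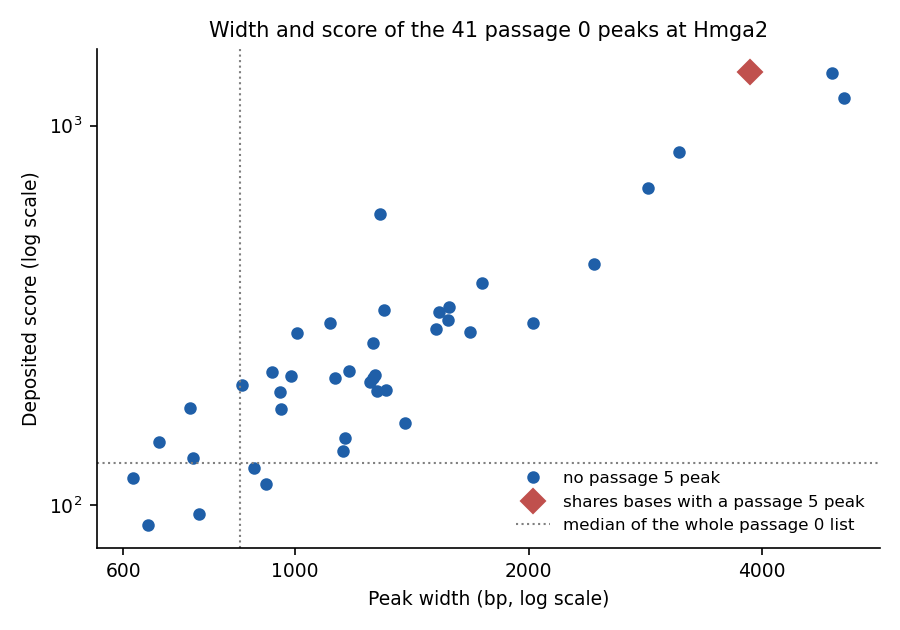
Width in bp and deposited score (both log scale) of each of the 41 passage 0 members, with the medians of the whole passage 0 list, 850 bp and 129, as dotted lines. Most members lie above both medians, and the only one that shares bases with a passage 5 peak, the diamond, has the highest score, 1386.

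A group of 3 very strong peaks stood near the centre of the run. The highest score of all passage 0 peaks on chromosome 10 belonged to chr10:119864350-119868205, 3856 bp wide with a score of 1386, which ranked 32 in the whole list. The next highest on that chromosome was its neighbour chr10:119859088-119864016, 4929 bp wide with a score of 1381. The widest on the chromosome, at 5107 bp, was chr10:119871545-119876651, with a score of 1181 and rank 48 in the list. Only 333 bases separated the first of these from its neighbour.

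Together with 2 weaker peaks of 1172 and 752 bp between them, with scores of 226 and 94.8, these 3 peaks covered 15816 bases of a stretch of 17564. The stretch lay between 36.8 and 54.4 kb downstream of the start. The 3 strongest alone held 22.1% of all bases in the members' peaks. On the side of the start, 2 further peaks of 1740 and 2432 bp, with scores of 384 and 431, adjoined the stretch. Joined across gaps of at most 1 kb, the 7 peaks made a block of 22274 bases, chr10:119859088-119881361, the second longest such block on the autosomes (rank 2 of 52045).

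Another 3 members had scores of at least 500, and all lay farther from the start. The first, chr10:119851133-119854259, was 3127 bp wide with a score of 854. The second, chr10:119831056-119832342, had a score of 587 at a width of only 1287 bp, and it was the narrowest of the 6 members at or above 500. The third, chr10:119817031-119819884, was 2854 bp wide with a score of 687 and lay 93.62 kb from the start. The other 35 members had scores of 88.6 to 431 and widths of 617 to 2432 bp. In the flanking stretches none of the 22 peaks on either side reached 500. Of the 93 passage 0 peaks on chromosome 10 that did, the region held 6 (6.45%), while it held 1.08% of all peaks of that chromosome.

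Coverage by passage 0 peaks was low in the first 10 kb and again from 110 to 120 kb, and it was highest from 30 to 50 kb. In the first 10 kb downstream, 1 peak covered 12.8% of the bases. Coverage was 44.6% from 10 to 20 kb, 49.4% from 20 to 30 kb, 77.1% from 30 to 40 kb and 82.5% from 40 to 50 kb. It then stayed between 47.1% and 61.7% in each bin out to 110 kb and was 11.8% from 110 to 120 kb. The number of peaks per bin, 2 to 5 between 10 and 110 kb, did not follow the coverage. The bin from 50 to 60 kb had 2 peaks and 61.6% coverage, and the bin from 20 to 30 kb had 5 peaks and 49.4%. Wide peaks, not many peaks, filled the central bins.

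**Figure D4:**
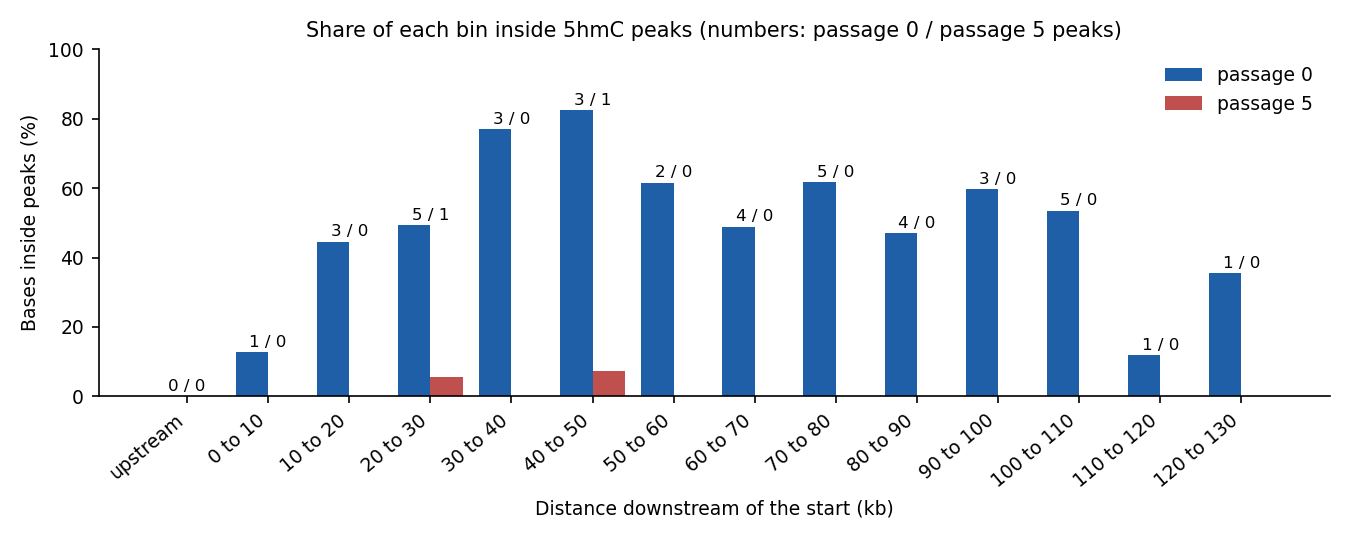
Share of bases inside peaks, in percent, in bins of 10 kb downstream of the Hmga2 start at passage 0 and passage 5; the upstream bin holds 6500 bases and the last 3501. Numbers above the bars count passage 0 and passage 5 peaks by their middles. Passage 0 coverage is 12.8% in the first 10 kb and peaks at 82.5% from 40 to 50 kb, and passage 5 peaks appear in 2 bins.

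No steady trend ran from the start to the left border. The Spearman correlation between a member's score and its distance from the start was -0.10, and for width it was -0.23. With the part downstream of the start cut into 3 equal parts, the median score was 253 in the part nearest the start, 223 in the middle part and 220 in the far part. Medians of width were 1292, 1163 and 1210 bp. The middle part held 16 peaks, 4 of them with a score of at least 500, and the outer parts held 12 peaks each with 1 such peak. Weak peaks stood among the strong ones, and the 2 members with scores under 100 were both in the middle part.

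The members nearest the left border had modest scores. Between 98.3 and 110.0 kb from the start, 6 peaks had scores of 147 to 322 and widths of 667 to 1681 bp. Beyond the 7505-base gap, chr10:119794820-119795945 had a score of 216 and chr10:119791360-119792276 a score of 114. The last member, chr10:119789374-119790329, had a score of 199 and crossed the left border, with 330 of its 956 bases inside. The first peak outside lay 22.8 kb beyond that border, was 876 bp wide and had a score of 121.

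At passage 5, 2 peaks were called in the region, and they covered 1294 bases, or 0.995% of it. The passage 0 list had 20.5 times as many peaks here and 48.1 times as many covered bases, against 8.94 and 14.6 times over the whole lists. The ratio of peaks depends on how finely peaks were split: joined within 1 kb, the region held 20 at passage 0 and 2 at passage 5. On the autosomes the same joining took 60086 passage 0 peaks to 52045 blocks. At passage 5, 212 of 6681 autosomal gaps were at most 1 kb. Joining thus lowers the ratio far more in the region than on the autosomes, and the 2 ratios come closer together. In the 28 tiles with at least 30 passage 0 peaks, passage 5 peaks numbered 9.47% of passage 0 peaks. That share was 4.88% in the region and 11.2% over the lists. Mean widths were 647 bp for the 2 passage 5 members and 1535 bp for the 41 passage 0 members. The region held 0.0682% of the passage 0 list and 0.0297% of the passage 5 list. The passage 0 numbers are those the region was selected on, which can raise both ratios. No library was replicated, so the ratios have no error and the passages could not be tested against each other. How deeply either library was sequenced is not recorded in the lists.

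The stronger of the passage 5 peaks lay inside the strongest passage 0 peak. It spanned chr10:119865487-119866225, was 739 bp wide and had a score of 128, above 62.3% of the passage 5 list. All of its bases were within the passage 0 peak of score 1386, of which it covered 19.2%, and the passage 0 peak was 5.22 times as wide. Its middle was 422 bases farther from the start than that of the passage 0 peak.

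The other passage 5 peak, chr10:119884881-119885435, shared no base with a passage 0 peak. It was 555 bp wide with a score of 91.4, and only 9.29% of the passage 5 list scored lower. It sat in a gap of 2554 bases between 2 passage 0 peaks with scores of 125 and 302, at 883 and 1116 bases from them. A site outside a list has no called peak, which does not show that it lacks 5hmC. Over the whole passage 5 list, 69.9% of peaks overlapped the passage 0 list. Here it was 1 of 2 (95% exact binomial interval 1.26% to 98.7%). With 2 peaks no outcome could have been set apart from the list share, so no comparison is drawn.

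Of the 41 passage 0 members, 1 (2.44%, 95% exact binomial interval 0.0617% to 12.9%, for counting error only) shared bases with a passage 5 peak. Over the whole passage 0 list the share was 7.63%, which lies inside the interval for Hmga2. The same count was made within classes of strong or wide members. Of the 15 members in the highest 10% of the list by score, 1 had a passage 5 peak, or 6.67% (0.169% to 31.9%), against 24.4% for all peaks of that class. Of the 6 with a score of at least 500 it was 1 against 37.4%, and of the 7 wider than 2 kb it was 1 against 23.4%. Of the 3 with a score of at least 1000 it was 1, against 59.0% of 83 such peaks in the list. All these counts refer to the same single peak, and each list share lies inside the exact interval of the matching Hmga2 share. With so few peaks the intervals are wide, and they treat peaks as independent although many members are close neighbours. Retention at Hmga2 was thus not tested against the list, and no conclusion is drawn from the overlap of intervals.

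The passage 5 number at Hmga2 lay within the range of the other dense stretches. The 28 tiles with at least 30 passage 0 peaks, 1 of which cuts through the region, held 0 to 10 passage 5 peaks with a median of 3. In 13 of them (46.4%) the number was 2 or fewer. These are all such tiles of 1 library, so no interval is given. At passage 5, 7.96% of all tiles held at least 2 peaks. In the flanks of Hmga2 at passage 5, the stretch below the left border had no passage 5 peak, and the nearest one on that side was 134 kb from the border. Upstream, 2 passage 5 peaks of 410 and 801 bp, with scores of 104 and 123, lay 39.5 and 106.1 kb before the start, and both shared bases with passage 0 peaks.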

How the data were processed

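Each passage has 1 GLIB library. Build mm9 and the tools MACS 1.4.1, Bowtie 0.12.7 and CASAVA 1.8 are listed, with no role, per the submitters' processing notes. For alignment settings, duplicates, an input control and the peak threshold, the sources used here give nothing. The lowest deposited score was 80 at passage 0 and 81.5 at passage 5, and what is called at passage 5 depends on such a limit. Each deposited file is the authors' list of peaks called in 1 library, with positions and an unnamed score that was used only to rank and filter within that list. Read numbers are not in the lists, so depth is unknown. Positions were converted to count from 1.

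Region and start were taken from the definition of the region. Peaks counted as shared with at least 1 base in common. Intervals are 95% exact (Clopper-Pearson) and treat peaks as independent. The members, the lists and the classes of score and width were chosen with earlier results of these data known. Described singly were all passage 5 members, the 5 highest-scoring and 5 widest passage 0 members, those nearest the start, at the borders and beside the longest gap; other single peaks, runs, blocks and the dense tiles were added after their values were seen. The genes of the Lin28 and let-7 axis were not analysed here, because the gene table is of GRCm38; it served for names and the promoter sequence, from RefSeq (1 entry for Hmga2).

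Overlap, gap and merging code was tested on simulated lists, and the overlap count equalled that of bedtools 2.31.1. Python 3.11.15, numpy 2.4.6, pandas 2.3.3, scipy 1.17.1 and matplotlib 3.10.9 were used.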

Additional observations from a re-analysis of the deposited data

How the results depend on the processing

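Of 26 recomputed values for 11 results, 20 stayed within 1.5 times the reported count or inside its interval, 6 left these bounds and 0 changed sign. With peaks at most 1 kb apart merged, the region held 20 passage 0 peaks, with a median gap of 2000 bases and a median width of 2510 bp, by the construction of merging. With scores of at least 100, 1 passage 5 peak of 739 bases was left, and 100% of the passage 5 members then shared bases with a passage 0 peak, since the weaker peak has a score of 91.4. Restricting the region to the part downstream of the start could change nothing, as no peak lies upstream within it. Asking for at least 50% of the shorter peak could change nothing either, since the shared passage 5 peak lies wholly inside its passage 0 peak. These settings count among the values that stayed, and only the rank correlation could have changed sign. Unknown depth and the lack of replicates limit every comparison between passages. No paired analysis was possible because each passage has 1 library and the labels give no replicate numbers.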
